A study of Mus musculus with 18 samples.

Results

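The miR-183, miR-96 and miR-182 cluster is a group of 3 neighbouring miRNA genes, examined here in small RNA of mouse sperm. Members were taken by name alone as every known miRNA entry called mmu-miR-183, mmu-miR-96 or mmu-miR-182 (mmu for mouse, left out below), whichever arm of the hairpin it comes from. This gave 6 arms, the 5p and the 3p arm of 3 precursors, of 1739 known arms of 1066 precursors listed in 16 libraries. All 6 arms and all 3 precursors passed the filter on low values and were among the 735 arms and 506 precursors tested.

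The animals were males of ICR, an outbred mouse strain, and the study looked for effects of a father's exposure that reach later generations. F0 NHS males had been exposed to NH3 and H2S, beginning at 3 weeks of age and lasting 5 weeks. F0 Con is the control group of that generation, and its housing is not described. F1 NHS males were untreated sons of F0 males and untreated females and are set against F1 Con. For F1 NHS and F1 Con alike, the age at mating is given as 8 weeks. F2 NHS males were the next untreated generation and are set against F2 Con. No animal carried an engineered allele. Each of the 6 groups has 3 libraries by label, but the miRNA lists of F1 NHS replicates 1 and 3 stop before the miRNAs, so F1 NHS is represented by replicate 2 alone. Neither the number of animals behind a library nor whether replicates are separate animals is stated, so p-values measure the spread between libraries, which may be partly technical.

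The 3 hairpins are cut from a shared primary transcript, first in the nucleus by Drosha and then in the cytoplasm by Dicer, and either arm can be loaded into an Argonaute protein. The loaded arm finds its target mRNAs mainly through its seed, the bases near its 5′ end. The cluster is best known from sensory organs, where seed changes in miR-96 cause hearing loss in mice and people, and its members are also present in epithelia, testis and sperm.

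The mature sequences are shown because the 5p arms differ inside the seed, so that a change in the balance between members would be a change in the seeds present. Sequences are from RefSeq on GRCm38.p6 (mm10), for all 6 arms, 5′ to 3′, with the seed (bases 2 to 8, counted from the 5′ end) in capitals.
miR-183-5p: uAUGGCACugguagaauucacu
miR-96-5p: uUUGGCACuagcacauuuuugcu
miR-182-5p: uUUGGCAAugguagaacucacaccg
miR-183-3p: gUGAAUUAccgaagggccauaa
miR-96-3p: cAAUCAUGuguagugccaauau
miR-182-3p: gUGGUUCUagacuugccaacu

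Each 5p arm had a seed of its own. Within the seed, miR-96-5p and miR-182-5p differed by C8A, miR-96-5p and miR-183-5p by U2A, and miR-183-5p and miR-182-5p by A2U and C8A, in each case from the first to the second. Over their whole length miR-183-5p and miR-182-5p were the closer pair, with 18 of 22 bases identical position by position, against 12 of 23 for miR-96-5p and miR-182-5p and 13 of 22 for miR-96-5p and miR-183-5p. Among the 1679 mature mouse miRNAs of the same RefSeq table, the seed of miR-96-5p occurred once more, in miR-1271-5p, which none of the 16 libraries lists. The seed of miR-96-3p occurred in miR-3475-5p, which was listed, and the other 4 seeds were in no further miRNA of the table.

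The hairpins are printed next, because every level below is a count of reads on their arms. Capitals mark the 5p and then the 3p arm, and all 3 lie on the minus strand.
miR-183 hairpin: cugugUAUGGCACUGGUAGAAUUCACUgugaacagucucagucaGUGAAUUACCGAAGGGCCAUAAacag
miR-96 hairpin: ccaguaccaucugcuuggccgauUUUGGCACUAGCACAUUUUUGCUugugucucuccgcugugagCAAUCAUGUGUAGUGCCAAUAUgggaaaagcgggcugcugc
miR-182 hairpin: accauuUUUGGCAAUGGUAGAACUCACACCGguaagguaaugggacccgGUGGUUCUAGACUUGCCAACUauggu

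In the direction of transcription miR-183 comes first at chr6:30169668-30169737, then miR-96 at chr6:30169446-30169551 and miR-182 at chr6:30165918-30165992. The miR-183 and miR-96 hairpins are 116 bases apart and the miR-96 and miR-182 hairpins 3453 bases, and the cluster spans 3820 bases in all. In the GENCODE annotation of this build the cluster lies between the protein-coding genes Nrf1 and Ube2h and overlaps no exon of either. The nearest other gene is Rncr4, a long noncoding RNA on the plus strand. None of the 7299 predicted miRNA precursors and none of the 801902 predicted piRNAs that the authors deposited overlapped the cluster.

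Levels are TPM, which in the authors' table is reads of an entry per 1000000 reads of the library with no length term, and each member precursor is the sum of its 2 arms. Entries were joined only where their names match apart from the arm. Thus let-7a, let-7a-1 and let-7a-2, for example, count as separate precursors in the shares over all precursors. The 16 libraries held between 18072900 and 29430555 reads, of which 13.3% to 57.4% were known miRNAs. A feature that the labels do not give separated the libraries: a predicted hairpin stood at 2378 TPM or more in 6 of them and at 223 TPM or less in the other 10. The 6 are F0 NHS replicate 3, F0 Con replicate 2, F1 NHS replicate 2, F2 NHS replicate 1 and F2 Con replicates 1 and 2, and they are called the smaller set. In F1 the sole NHS library is in the smaller set and all 3 Con libraries are in the larger set, so the set and the exposure cannot be told apart there. Defining miRNAs of germ cells were present in every library, with a median of 6151 TPM for miR-34b and 4336 TPM for miR-34c. Those of somatic cells were present too, with a median of 28958 TPM for miR-143 of smooth muscle and 18285 TPM for miR-451a of red blood cells. In bulk samples such as these, fewer cells of a type and less RNA per cell cannot be told apart.

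Summed over all 6 arms, the cluster was a minor part of the miRNAs. It took 0.531% ± 0.12 of known miRNA reads in F0 NHS and 0.519% ± 0.0638 in F0 Con (SD, n = 3 each). It took 0.247% in the F1 NHS library and 0.367% ± 0.179 in F1 Con (n = 3). In F2 it took 0.554% ± 0.134 in NHS and 0.463% ± 0.14 in Con (n = 3 each). The groups overlapped in F0, F1 and F2 alike on the scale of TPM, where the cluster stood at 2251 ± 107 TPM in F0 NHS and 2624 ± 702 TPM in F0 Con. The F1 NHS library had 946 TPM and the F1 Con libraries 755 ± 456 TPM. The F2 NHS libraries had 1910 ± 500 TPM and the F2 Con libraries 1312 ± 645 TPM. These sums are descriptions with no test.

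**Figure D1:**
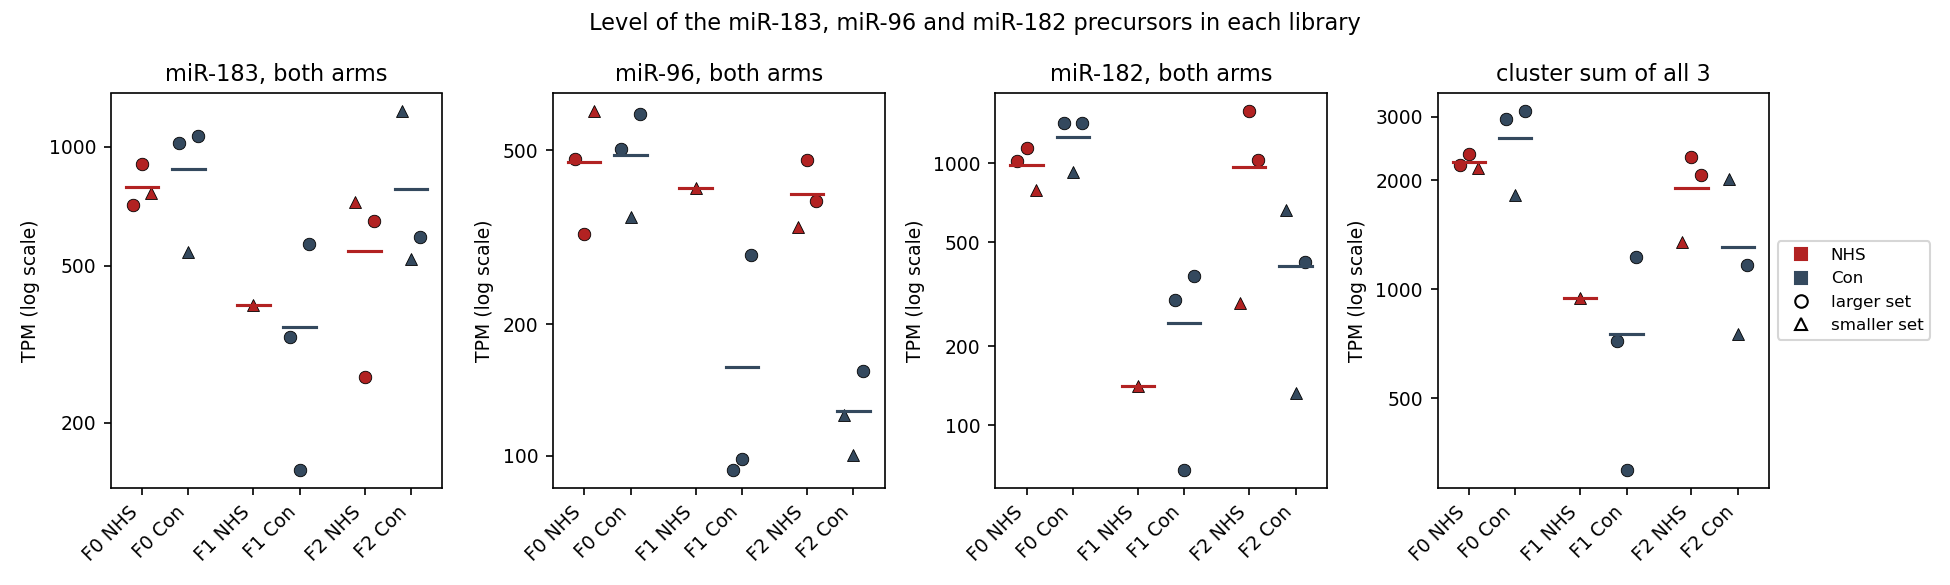
TPM of each precursor (both arms summed) and of the whole cluster in each of 16 libraries, on log axes, by group; red marks NHS, dark blue Con, bars are group means, and triangles mark the smaller set of libraries. miR-96 in F2 is the only panel and generation with 3 libraries per group in which NHS (334 to 476 TPM) and Con (101 to 156 TPM) do not overlap.

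miR-96, the member best known for its part in hair cells of the inner ear, was the one precursor of the 3 whose F2 groups did not overlap. It had 334, 476 and 382 TPM in F2 NHS libraries, against 124, 101 and 156 TPM in F2 Con libraries. Every F2 NHS library lay above every F2 Con library, and the means were 397 ± 71.9 and 127 ± 27.9 TPM (SD, n = 3 each), a ratio of 3.14. On that rule 12.5% of all tested precursors had every F2 NHS library above every F2 Con library. The fitted log2 fold change was 1.45 with an SE of 0.39, and edgeR's quasi-likelihood test with Benjamini-Hochberg adjustment over all precursors gave an adjusted p of 0.142, which missed the threshold of 0.05. DESeq2, run as an alternative, gave a log2 fold change of 1.37 and an adjusted p of 0.00763. Over 24 alternatives the log2 fold change of miR-96 stayed between 1.31 and 1.65 and its adjusted p between 0.00763 and 0.396, and DESeq2 was the only one of them past the threshold.

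The order was the same within either set of libraries, given here as values without a test. In the smaller set the single F2 NHS library had 334 TPM and the 2 F2 Con libraries averaged 112 TPM, a ratio of 2.98. In the larger set the 2 F2 NHS libraries averaged 429 TPM and the single F2 Con library had 156 TPM, a ratio of 2.75. As a share of known miRNA reads, miR-96 took 0.116% ± 0.0237 in F2 NHS and 0.0468% ± 0.00754 in F2 Con, and these did not overlap. How many of all precursors do so on this measure was not computed.

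Both arms of miR-96 contributed to the F2 values. miR-96-5p (mmu-miR-96-5p in the table), the guide strand in most tissues, had 147, 203 and 282 TPM in F2 NHS libraries, against 81.4, 69.7 and 43 TPM in F2 Con libraries. The groups did not overlap, as was the case in this direction for 11.7% of all tested arms, and the log2 fold change was 1.44 (SE 0.70, edgeR adjusted p = 0.465). miR-96-3p had 187, 273 and 100 TPM in F2 NHS libraries, against 42.3, 30.9 and 113 TPM in F2 Con libraries. F2 Con replicate 3 exceeded F2 NHS replicate 3 for this arm, so the groups overlapped, and the log2 fold change was 1.44 (SE 0.77, edgeR adjusted p = 0.514).

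In the directly exposed generation miR-96 showed no such gap. It had 476, 321 and 613 TPM in F0 NHS libraries, against 504, 352 and 605 TPM in F0 Con libraries, and the ranges overlapped almost completely. The log2 fold change was -0.11 (SE 0.39, edgeR adjusted p = 0.938). In F1 the sole NHS library had 409 TPM, against 92.8, 98.4 and 288 TPM in F1 Con, and the log2 fold change was 1.01 (SE 0.52, edgeR adjusted p = 0.573) on the assumption that a lone library varies like the other groups. A single NHS library above all 3 Con libraries was found for 43.3% of precursors in F1. The test of whether the NHS effect on miR-96 differs between generations gave an unadjusted p of 0.0374 (14.8% of precursors were under 0.05) and an edgeR adjusted p of 0.306, which missed the threshold as did all other precursors (0% called).

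miR-182, which lies farthest from the other members, had the highest mean and the largest SD of the 3 precursors in F2 NHS, and yet the lowest level of the 3 in replicate 1. It had 293, 1578 and 1031 TPM in F2 NHS libraries, against 663, 132 and 419 TPM in F2 Con libraries. F2 NHS replicate 1 was below 2 of the 3 Con libraries, so the groups overlapped, and the log2 fold change of 1.03 (SE 0.69) had an edgeR adjusted p of 0.52. The value depended on the set of libraries: the ratio of NHS to Con was 0.736 in the smaller set and 3.11 in the larger set. It also depended on single libraries, as the log2 fold change was 0.55 without F2 NHS replicate 2, 0.63 without F2 Con replicate 2 and 1.56 without F2 Con replicate 1.

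The fitted log2 fold changes of the 2 arms of miR-182 had opposite signs in F2, and edgeR called neither arm. How reads were assigned to arm names is not given in the sources used here. miR-182-5p (mmu-miR-182-5p), the guide strand in most tissues, had 211, 1416 and 698 TPM in F2 NHS libraries, against 16.9, 67 and 178 TPM in F2 Con libraries. All NHS libraries were above all Con libraries, the lowest of them by a narrow margin, as was the case for 11.7% of all tested arms, and the log2 fold change was 2.88 (SE 1.01, edgeR adjusted p = 0.301). DESeq2 gave 2.83 with an adjusted p of 0.0465, and over 24 alternatives the adjusted p of miR-182-5p ran from 0.0465 to 0.689. miR-182-3p had 82.1, 162 and 333 TPM in F2 NHS libraries, against 646, 65.1 and 241 TPM in F2 Con libraries. These groups overlapped, with a log2 fold change of -0.95 (SE 0.93, edgeR adjusted p = 0.716), and without F2 Con replicate 1, the highest library, it was 0.10.

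In F0 and F1 the mean of miR-182 was lower in NHS than in Con and did not pass the test. It had 1023, 1147 and 791 TPM in F0 NHS libraries, against 1425, 923 and 1430 TPM in F0 Con libraries, with a log2 fold change of -0.34 (SE 0.68, edgeR adjusted p = 0.864). The F1 NHS library had 141 TPM, against 299, 67.5 and 370 TPM in F1 Con libraries, with a log2 fold change of -1.30 (SE 1.05, edgeR adjusted p = 0.706). On the scale of TPM the ranges overlapped in both generations. As a share of known miRNA reads the F1 NHS library, at 0.0367%, was just below the lowest F1 Con library, at 0.0391%.

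miR-183, the first hairpin of the transcript, had a lower mean in F2 NHS than in F2 Con and did not pass the test. It had 724, 261 and 651 TPM in F2 NHS libraries, against 1231, 520 and 591 TPM in F2 Con libraries. The groups overlapped, F2 NHS replicate 2 was the lowest of the 6 and F2 Con replicate 1 the highest, and the log2 fold change was -0.65 (SE 0.54, edgeR adjusted p = 0.613). Without F2 Con replicate 1 it was -0.21, without F2 NHS replicate 2 -0.29 and without F2 NHS replicate 1 -1.23. In F0 miR-183 had 713, 904 and 765 TPM in NHS libraries, against 1025, 541 and 1065 TPM in Con libraries (log2 fold change -0.13, SE 0.54, edgeR adjusted p = 0.938). In F1 it had 397 TPM in the NHS library, against 329, 152 and 569 TPM in Con libraries, and the groups overlapped there as well.

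Of its arms, miR-183-5p (mmu-miR-183-5p) was the one with a gap in F0. It had 246, 87.4 and 269 TPM in F0 NHS libraries, against 329, 296 and 497 TPM in F0 Con libraries. Every F0 NHS library was below every F0 Con library, as were those of 4.63% of all tested arms, and the log2 fold change was -1.09 (SE 0.68, edgeR adjusted p = 0.777). miR-183-3p had 467, 816 and 495 TPM in F0 NHS libraries, against 695, 245 and 568 TPM in F0 Con libraries, with overlap. The other F0 arms overlapped between groups too, with log2 fold changes of 1.05 for miR-96-5p, -1.16 for miR-96-3p, -0.72 for miR-182-5p and -0.12 for miR-182-3p.

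Across the NHS and Con comparisons edgeR called none of the 9 member entries, 6 arms and 3 precursors, and 0% of all tested precursors and arms in F0, F1 and F2. At an unadjusted p under 0.05 it listed 8.1% of precursors in F0, 8.89% in F1 and 14.4% in F2, and miR-96 in F2 was the only member precursor among them. Among arms, 6.12% passed that unadjusted limit in F0, 6.39% in F1 and 11.2% in F2, and miR-182-5p in F2 was the only member. DESeq2 called 6.72% of precursors and 3.81% of arms in F2.

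The 3 Con groups were compared to see how far the members vary between generations without exposure. miR-96 stood at 160 ± 111 TPM in F1 Con and 127 ± 27.9 TPM in F2 Con, against 487 ± 127 TPM in F0 Con (SD, n = 3 each). All F1 Con and all F2 Con libraries were below all F0 Con libraries for miR-96 and for miR-182, as were 33% of precursors in F1 Con and 26.3% in F2 Con. miR-182 stood at 246 ± 158 TPM in F1 Con and 405 ± 266 TPM in F2 Con, against 1260 ± 291 TPM in F0 Con. miR-183 at 350 ± 209 TPM in F1 Con and 781 ± 392 TPM in F2 Con overlapped F0 Con at 877 ± 291 TPM.

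As a share of known miRNA reads the picture was different for miR-183. It took 0.279% ± 0.0931 in F2 Con, against 0.172% ± 0.0342 in F0 Con, with every F2 Con library above every F0 Con library, as for 22.1% of precursors on this measure. miR-96 took 0.0717% ± 0.0158 in F1 Con, against 0.0965% ± 0.00928 in F0 Con, and these overlapped. In F2 Con it took 0.0468% ± 0.00754, and every F2 Con library was below every F0 Con library. miR-182 was lower in all F1 Con and F2 Con libraries than in F0 Con on this measure too. The margin was narrow in F1, with 0.225% in F1 Con replicate 1 and 0.228% in F0 Con replicate 2. The share of all precursors lower in this way was not computed.

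miR-182-5p, whose F2 values are given above, was also low in the later Con groups. It stood at 92.9 ± 78.2 TPM in F1 Con and 87.4 ± 82.5 TPM in F2 Con, against 728 ± 516 TPM in F0 Con. All libraries of both groups were below all F0 Con libraries, as for 25.6% of arms in F1 Con and 21.1% in F2 Con. As a share of known miRNA reads both groups overlapped F0 Con. For F2 Con against F0 Con the log2 fold change was -2.76 (SE 1.0, edgeR adjusted p = 0.158), where edgeR called 0.272% of arms. DESeq2 gave -2.54 with an adjusted p of 0.0465, where it called 11.8% of arms. The same F2 Con libraries serve as controls of F2 NHS.

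The whole miRNA fraction moved with these values. Known miRNAs made up 13.3% to 32.6% of reads in F1 Con and 20.3% to 32.3% in F2 Con, against 40.6% to 57.4% in F0 Con, and their part in the TPM differences was not tested. On the TMM scale, which compares miRNAs with each other, the log2 fold change of miR-96 was -1.44 (SE 0.39) for F2 Con against F0 Con, with an edgeR adjusted p of 0.0543. It was -0.82 (SE 0.39, edgeR adjusted p = 0.186) for F1 Con against F0 Con. edgeR called 3.16% of precursors in the first of these comparisons and 4.15% in the second, and no member was among them. Over all 3 Con groups edgeR's F test gave adjusted p = 0.0805 for miR-96, 0.258 for miR-182 and 0.552 for miR-183, where 3.75% of precursors passed. DESeq2 gave 0.00753 for miR-96, where it called 24.1% of precursors, and over 23 alternatives its adjusted p ran from 0.00753 to 0.382. The F2 Con libraries are shared by this comparison and by F2 NHS against F2 Con. The F2 NHS values of miR-96 (334 to 476 TPM) lay within the range of F0 NHS (321 to 613 TPM) and overlapped that of F0 Con (352 to 605 TPM).

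The make-up of the cluster varied between libraries. In F0 the 3 members kept similar proportions: miR-182 took 36.5% to 48.4% of cluster reads in NHS and 46.1% to 50.8% in Con, and miR-96 took 13.5% to 28.3% in NHS and 17.1% to 19.5% in Con. In F2, miR-182 took 21.7%, 68.2% and 49.9% in NHS libraries, against 32.9%, 17.6% and 36% in Con libraries. miR-183 was the largest part of all 3 F2 Con libraries, at 61%, 69.1% and 50.7%, and took 53.6%, 11.3% and 31.5% in F2 NHS libraries. F2 NHS replicate 2 had the lowest share of miR-183 and the highest share of miR-182 of all 16 libraries.

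**Figure D2:**
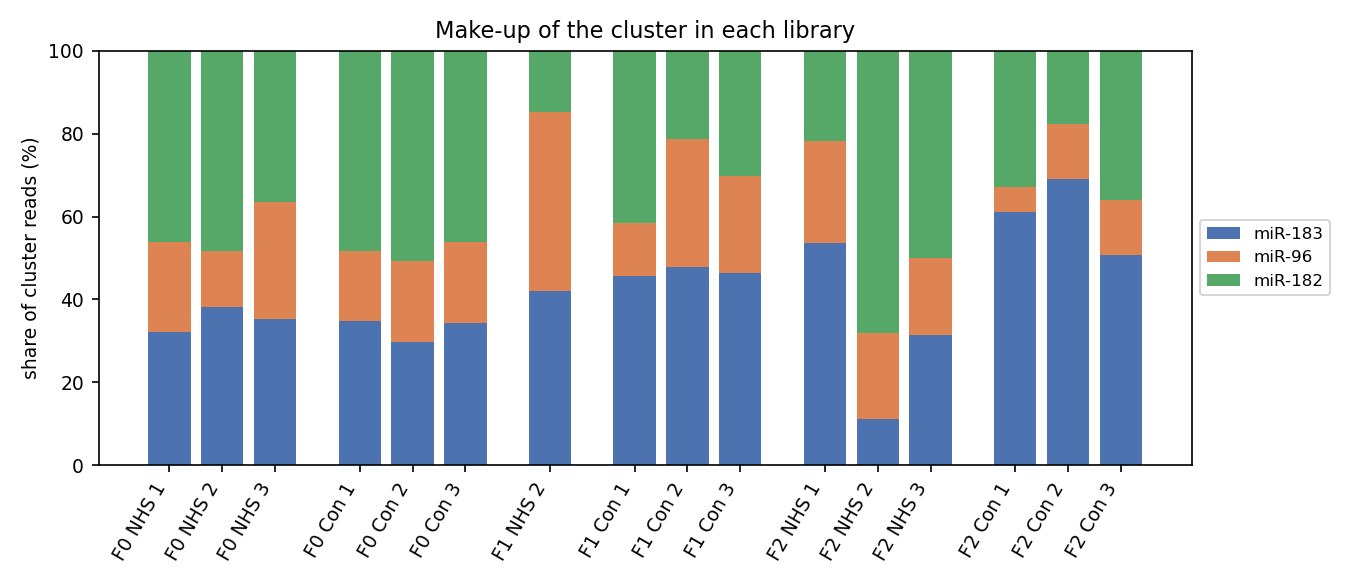
Share of each precursor in the reads of the cluster (percent) for each of 16 libraries, with NHS left of Con in each generation. The blue part, miR-183, exceeds 50% in all 3 F2 Con libraries, and the green part, miR-182, is largest in F2 NHS replicate 2 at 68.2%.

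The ratio of miR-96 to miR-183, whose hairpins are only 116 bases apart, was 0.462, 1.82 and 0.587 in F2 NHS libraries, against 0.1, 0.193 and 0.264 in F2 Con libraries. The groups did not overlap, as for 17.8% of all 48516 pairs of precursors of at least 10 TPM on average (either direction), and the difference in log2 ratio was 2.20. With 3 libraries against 3 the exact permutation test cannot go below 0.1, and this is the value it gave. In F0 the ratios were 0.668, 0.355 and 0.802 in NHS libraries and 0.492, 0.651 and 0.568 in Con libraries, with overlap. Pooled within generations the difference in log2 ratio was 1.14 (two-sided exact permutation p = 0.0156, n = 7 NHS and 9 Con libraries), and 0.141 after Benjamini-Hochberg adjustment over the 9 ratio tests. The ratios of miR-182 to miR-183 and of miR-182 to miR-96 gave adjusted exact permutation p-values of 0.398 or more.

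In the deposited counts, the arm name that held more reads of a hairpin differed between libraries of the same group. The 5p share of miR-182 ran from 2.55% (exact 95% interval 2.31% to 2.81%) in F2 Con replicate 1 to 89.8% (89.5% to 90.1%) in F2 NHS replicate 2. That of miR-183 ran from 9.67% (9.32% to 10%) in F0 NHS replicate 2 to 79.2% (78.3% to 80%) in F2 Con replicate 2. That of miR-96 ran from 9.72% (9.05% to 10.4%) in F0 Con replicate 2 to 81.2% (80.5% to 81.8%) in F0 NHS replicate 1. The 5p arm held over 50% of reads in 7 of 16 libraries for miR-182, in 5 for miR-183 and in 7 for miR-96. The median 5p share was 47.7% for miR-182 and 43.3% for miR-96, so the arm called the guide strand in most tissues did not dominate these counts. For miR-183 the median was 37.5%. These Clopper-Pearson intervals carry the error of counting alone, as no molecular identifiers were read, and they are far narrower than the spread within a group.

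Other precursors behaved likewise. Of 184 other precursors with both arms tested and at least 10 TPM on average, 129 (70.1%) also had their 5p share on both sides of 50%, and the median range of the share was 67.9 percentage points. The range was 87.2 points for miR-182, 69.5 for miR-183 and 71.4 for miR-96. As examples of other precursors, the 5p share ran from 6.63% to 95.5% for let-7b and from 2.7% to 98.6% for miR-21a. How the authors assigned reads to arm names is not given, and its part in the arm values was not tested.

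**Figure D3:**
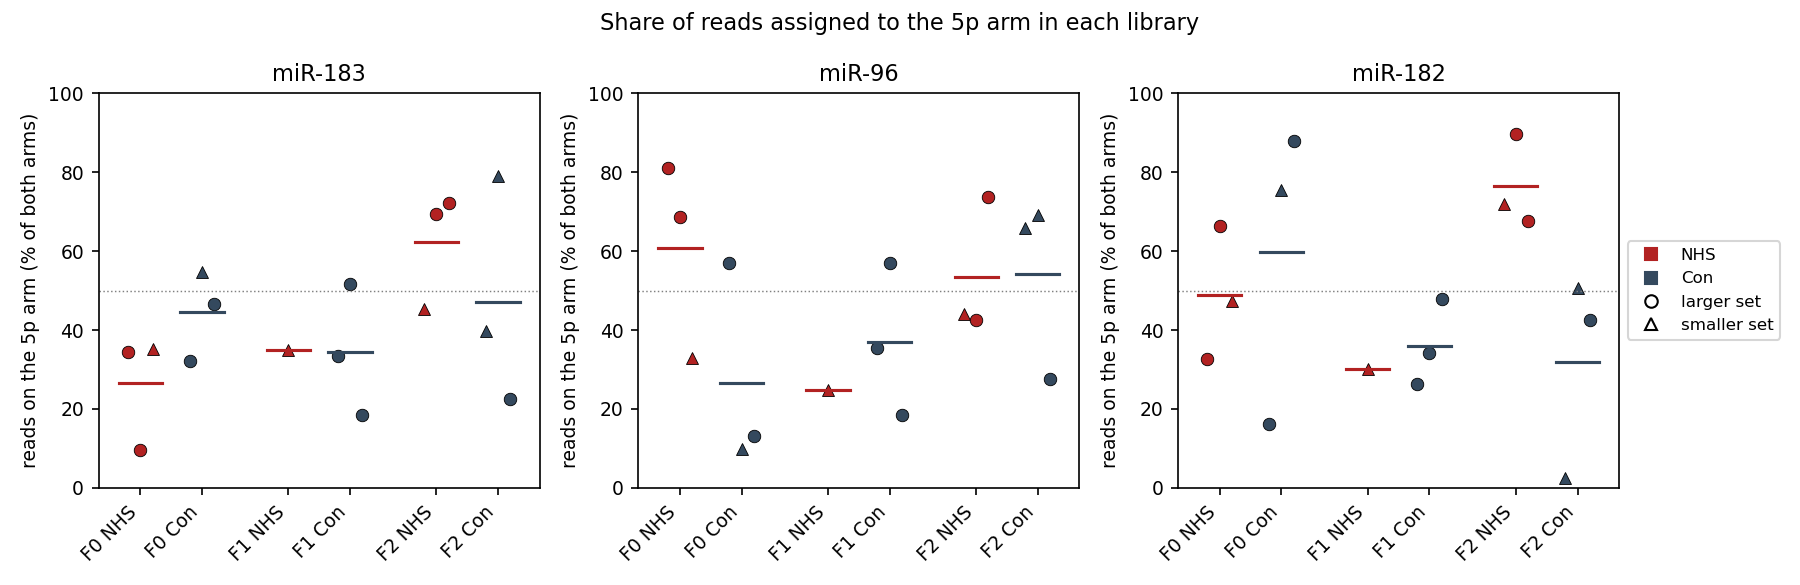
Share of reads on the 5p arm (percent of both arms) of each precursor in 16 libraries by group; bars are group means, triangles mark the smaller set, and the dotted line is at 50%. Points of a single group lie on both sides of the line in most groups, and for miR-182 in F2 the NHS libraries (67.7% to 89.8%) lie above the Con libraries (2.55% to 50.7%).

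For miR-182 in F2 the 5p share was 72%, 89.8% and 67.7% in NHS libraries, against 2.55%, 50.7% and 42.5% in Con libraries. These groups did not overlap, as in this direction for 5.43% of 184 other precursors, at 76.5% ± 11.7 and 31.9% ± 25.8 (SD, n = 3 each), and the exact permutation p was 0.1, the smallest that 3 against 3 allows. Pooled within generations the difference was 9.19 percentage points (exact permutation p = 0.456, n = 7 NHS and 9 Con libraries). It was 1.89 points without F0 Con replicate 1 and 16.8 points without the sole F1 NHS library, and 15.8 points with the reads of a group summed. For miR-96 the pooled difference was 7.12 points (p = 0.548) and for miR-183 it was -0.83 points (p = 0.929), by the same exact permutation test. The value of miR-96 was 2.68 points without F2 Con replicate 3, 16.8 points without the F1 NHS library and 10 points with reads summed. No adjusted p over the 9 tests of arm shares was below 0.9.

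Summing the arms gave values that varied less between replicates. The SD of log2(TPM + 1) within groups was 0.80 for miR-96-5p and 1.0 for miR-96-3p, and 0.52 for their sum. It was 0.71 and 1.09 for the 5p and 3p arms of miR-183 and 0.68 for the sum, and 1.33 and 1.25 for those of miR-182 and 0.999 for the sum. A sum with less spread than either arm was also found for 146 of the 184 other precursors (79.3%), whose medians were 1.12 for 5p arms, 1.02 for 3p arms and 0.74 for sums. miR-182 was thus above the median of other precursors on all 3 measures, and miR-96 below it on all 3.

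**Figure D4:**
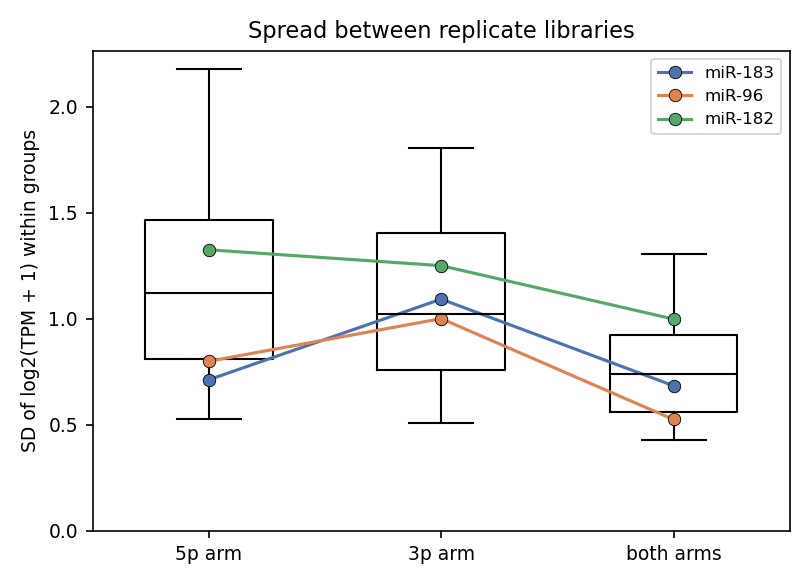
SD of log2(TPM + 1) within groups for the 5p arm, the 3p arm and the sum of both, over 16 libraries; boxes show the quartiles of 184 other precursors and whiskers their 5th and 95th percentiles. Each member's line ends lower for the sum of both arms, at 0.52 for miR-96, 0.68 for miR-183 and 0.999 for miR-182.

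Whether the 3 members move together over libraries was examined on log2(TPM + 1) over all 16 libraries, with p-values from 100000 random pairings, two-sided, and Benjamini-Hochberg adjustment over the 3 pairs. miR-96 and miR-182 had a Pearson r of 0.67 (permutation p = 0.0046, adjusted 0.0138) and a Spearman rho of 0.66 (permutation p = 0.00625, adjusted 0.0187). miR-183 and miR-182 had r = 0.59 (permutation p = 0.0151, adjusted 0.0227) and rho = 0.47 (permutation p = 0.0671, adjusted 0.101). miR-183 and miR-96, the closest neighbours on the chromosome, had the lowest r of the 3 pairs, 0.39 (permutation p = 0.131), with rho = 0.42 (permutation p = 0.103). Without the 2 libraries farthest from the median of the first-named member, r was 0.56, 0.69 and 0.37 for these pairs in the same order.

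**Figure D5:**
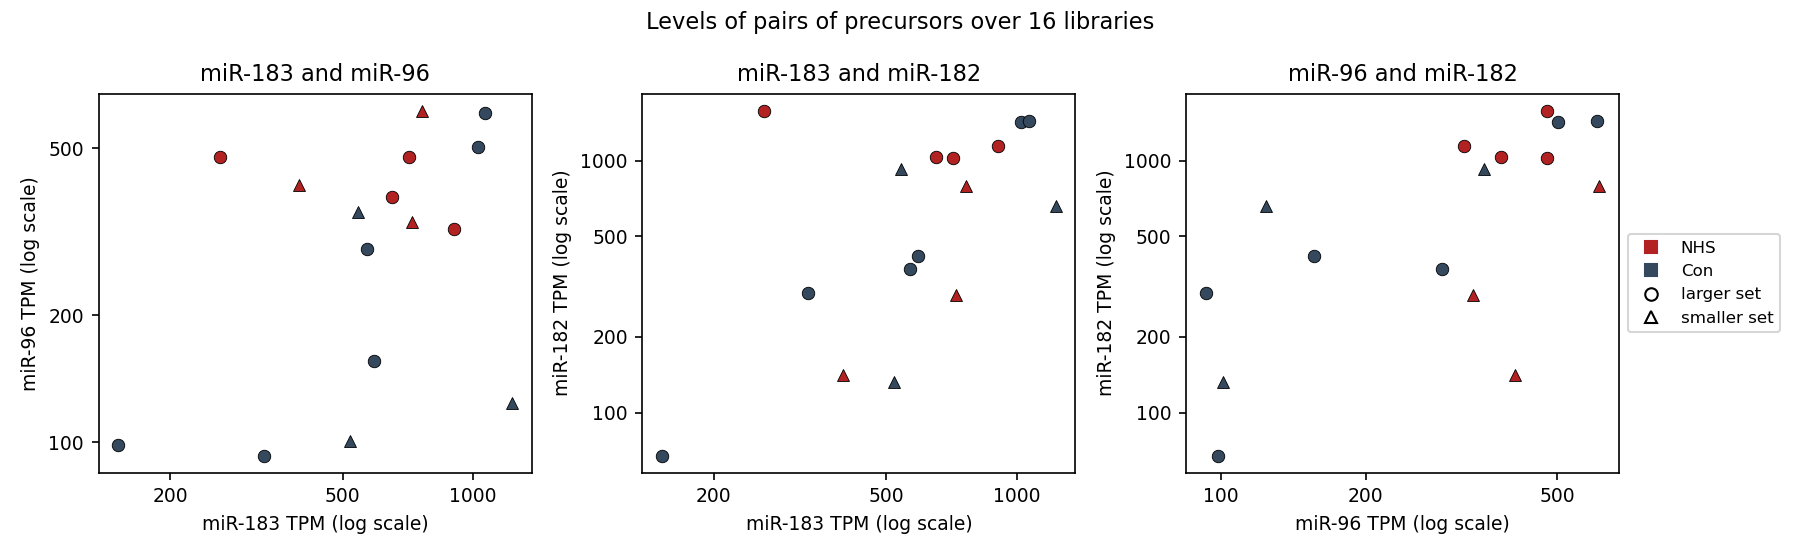
TPM of each pair of precursors in 16 libraries, on log axes; colours mark NHS and Con and triangles the smaller set. F2 NHS replicate 2 stands apart at the upper left of the 2 panels with miR-183, with 261 TPM of miR-183 beside 1578 TPM of miR-182 and 476 TPM of miR-96.

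All precursors share these libraries and the fraction of known miRNAs in each, which TPM does not remove, so the same measure was taken over all pairs. Among 48516 pairs of 312 precursors of at least 10 TPM the median r was 0.18 on the same scale, and 94.5%, 89.9% and 73.9% of pairs lay below miR-96 with miR-182, miR-183 with miR-182 and miR-183 with miR-96. On the TMM scale, where the median over all pairs was 0.01, r was 0.43, 0.27 and -0.21 for the 3 pairs, and none passed. As deviations from group means r was 0.47, 0.38 and 0.36, and neither of the 2 pairs that had passed did so (permutation p = 0.0661 for miR-96 with miR-182 and 0.146 for miR-183 with miR-182). In the larger set of 10 libraries r was 0.88, 0.71 and 0.66, and in the smaller set of 6 it was 0.31, 0.59 and -0.27. Without F1 Con replicate 2, the library with the lowest miR-183 and miR-182, r of miR-183 and miR-182 was 0.36 (permutation p = 0.197). Without F2 Con replicate 1 or without F2 NHS replicate 2, r of miR-183 and miR-96 was 0.58 (permutation p = 0.0227) or 0.53 (permutation p = 0.039).

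Arms were also compared, one by one. Of 12 relations computed in all, the 3p arms of miR-183 and miR-182 had r = 0.68 (permutation p = 0.00346, adjusted over the 12 0.0276). They had r = 0.62 without the 2 libraries farthest from the median, and 0.59 on the TMM scale. The other 5 pairs of matching arms had r between 0.13 and 0.40. The 2 arms of the same precursor, which come from the same hairpin, had r of 0.17 for miR-183, 0.16 for miR-96 and 0.26 for miR-182, none of which passed.

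The precursors whose levels were most like the mean of the 3 members over the 16 libraries were miR-130a (r = 0.90), miR-376c (0.89), miR-511 (0.88), miR-574 (0.87) and let-7e (0.87), among 309 precursors with a median r of 0.39. These are descriptions on log2(TPM + 1), and on the TMM scale the same 5 had r between 0.67 and 0.81.

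Marker lists of other cell types are given beside the F2 values of the members. In F2, 6 of 6 precursors of the epithelial list had a log2 fold change above 0, with a median of 1.04, where the median of all tested precursors was 0.05, and edgeR called none of them. They summed to 15147 to 21419 TPM in F2 NHS libraries and to 6237 to 9248 TPM in F2 Con libraries, led by miR-200c and miR-429, which mark epithelial cells (log2 fold changes 1.61 and 0.20). The red blood cell list (4 of 4 above 0, median 1.15) summed to 9240 to 24445 TPM in F2 NHS and 4403 to 11774 TPM in F2 Con. It was led by miR-451a and miR-486b, with log2 fold changes of 0.81 and 0.009. Among all 506 tested precursors, 265 were above 0 in F2. Smooth muscle and stroma, represented by miR-143 and miR-145a, had 2 of 2 above 0 and summed to 21107 to 34554 TPM in F2 NHS and 12105 to 29705 TPM in F2 Con.

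Sums of the germ cell list did not overlap between the F2 groups, nor did those of the epithelial list above, where NHS was higher. How often sums of other sets of precursors do so was not computed. The germ cell list had 2 of 3 precursors below 0 and summed to 8798 to 12666 TPM in F2 NHS and to 18631 to 22170 TPM in F2 Con. The log2 fold changes were -1.56 for miR-34b, -0.98 for miR-34c and 0.74 for miR-449a. miR-34b and miR-34c serve meiotic and haploid germ cells and multiciliated cells. Neural and sensory miRNAs, led by miR-124 and miR-9, had 4 of 4 below 0 and summed to 179 to 608 TPM in F2 NHS and 285 to 1072 TPM in F2 Con. Leukocyte miRNAs, led by miR-150 and miR-223, had 2 of 3 above 0 and summed to 928 to 2294 TPM in F2 NHS and 1046 to 2738 TPM in F2 Con. No list held a marker at 0 in any library, and edgeR called no list member in any generation. The part of these cell types in the values of miR-96 and miR-182 was not tested.

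In F0 the epithelial list had 5 of 6 below 0, with a median of -0.56, and summed to 12280 to 28622 TPM in NHS libraries and 20899 to 28970 TPM in Con libraries. The germ cell list had 2 of 3 above 0 in F0 and summed to 6785 to 18655 TPM in NHS and 4016 to 7881 TPM in Con. In F1 the epithelial list had 3 of 6 above 0, with 13713 TPM in the NHS library and 4694 to 19983 TPM in Con libraries, and the germ cell list had 0 of 3 above 0.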

How the data were processed

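Small RNA of mouse sperm was measured in 18 libraries, of which 16 list known miRNAs whole. The deposited counts are whole numbers per small RNA, in columns headed Count, and are taken here as reads. The deposited TPM values are counts per 1000000 reads of the library; this held to within 0.011 TPM in 100% of entries of the 13 libraries whose lists run to their end, with their summed counts as totals. For the other 5, totals were computed as count over TPM of the largest entry. The submitters' processing notes name build mm10, while for aligner, counter and filters the entry is: not given in the sources used here. Predicted miRNA and piRNA positions were used only to look for overlap with the cluster.

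The 2 arms of a precursor were summed by name. Counts were fitted with edgeR 4.0.16 in R 4.3.3 (TMM, quasi-likelihood F test, 1 model of 6 group means), keeping entries with at least 1 read per 1000000 library reads in at least 3 libraries, with Benjamini-Hochberg adjustment over all entries of a level and a threshold of 0.05. DESeq2 1.42.0 was an alternative. The fits were tested on simulated data. Shares and ratios were compared by two-sided exact permutation (scipy 1.17.1), within generations where pooled. Alternatives covered scaling, filter, libraries fitted, replicate block and each library left out. Those for the 2 sets of libraries, the ratios, the arm correlations and the pairwise Con differences were added after the data were seen. Named entries were the members, the 5 precursors most like their mean, miRNAs sharing a seed, and the 2 most abundant of each marker list. The members, lists and comparisons were chosen with earlier results of these data known.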

Additional observations from a re-analysis of the deposited data

How the results depend on the processing

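Counts of calls and member fold changes were recomputed under other scalings, filters, tools and sets of libraries, and with each library left out. The 5p shares pooled over generations and the correlations of precursors were recomputed under fewer settings. Ratios, arm correlations, likeness, marker lists and differences of arms between Con groups were not recomputed in this way, beyond what the text gives. The member fold changes recomputed kept their side of the threshold except where given here. With DESeq2 the log2 fold changes of miR-96 (1.37, adjusted p = 0.00763) and miR-182-5p (2.83, adjusted p = 0.0465) in F2 passed. So did miR-96 over the 3 Con groups (DESeq2 adjusted p = 0.00753) and in F2 Con against F0 Con (-1.36, DESeq2 adjusted p = 0.00297). In F2 Con against F0 Con it called 100 of 506 precursors. DESeq2 called 3, 3, 34, 25 and 122 precursors in F0, F1, F2, the difference between generations and the 3 Con groups, and 1, 7, 28, 11 and 86 arms, where edgeR called 0, 0, 0, 0 and 19 precursors and 0 arms in each.

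With library totals in place of TMM, 75 precursors and 23 arms were called over the 3 Con groups, and miR-96 passed there (edgeR adjusted p = 0.0375). With the same scaling miR-96 also passed in F2 Con against F0 Con (-1.94, edgeR adjusted p = 0.0397). The share of all precursors called in F2 Con against F0 Con with this scaling is not given here. This scaling turned 4 values that had missed the threshold: in F1, miR-183 (0.18), miR-183-3p (0.0364) and miR-183-5p (0.50), and in F2 Con against F0 Con, miR-183 (-0.17). Without a filter, 3 arms were called in F2, 3 in the difference between generations and 45 over the 3 Con groups, and miR-183-5p in F1 was 0.0597. Fitted on F0 libraries alone, miR-182-3p in F0 was 0.00998.

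As deviations from group means, same-numbered NHS and Con libraries had correlations of 0.25, -0.27 and -0.35 in F0 and 0.01, 0.13 and 0.25 in F2. Differently numbered libraries were not compared, so these values do not settle whether replicate numbers pair the samples. With a replicate block, 5 precursors were called over the 3 Con groups, and miR-183 (0.27), miR-183-3p (0.32) and miR-183-5p (0.0701) in F1 and miR-182-3p in F0 (0.11) changed sign. With the 2 sets of libraries as a term in the fit, 1 precursor was called in F0, 1 in F1, 1 in the difference between generations and 31 over the 3 Con groups, and 1 arm in each of these 4, and miR-183-5p in F2 was 0.0139. In the larger set alone 2 precursors were called over the Con groups, and miR-183-5p in F2 was 1.06. With reads summed per group, the 5p share of miR-183 was 2.61 points higher in NHS. Correlations were lower on the TMM scale, at -0.21 for miR-183 with miR-96, 0.27 for miR-183 with miR-182 and 0.43 for miR-96 with miR-182. The last 2 then missed the threshold (permutation p = 0.31 and 0.0986), as they did as deviations from group means, at 0.38 and 0.47 (permutation p = 0.146 and 0.0661), and miR-183 with miR-96 was -0.27 in the smaller set.

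With each library left out in turn, the edgeR count over the 3 Con groups ran from 4 to 28 precursors and from 0 to 4 arms. It was at most 12 precursors without any single F0 Con or F2 Con library, F0 NHS replicate 1, or F1 Con replicate 1 or 3. In F2 it ran from 0 to 4 precursors, with 4 without F2 NHS replicate 1 and 1 without F0 NHS replicate 3. Log2 fold changes that changed sign ran, in F0, from -0.20 to 0.0443 for miR-96, from -0.56 to 1.16 for miR-182-3p and from -0.21 to 0.54 for miR-183-3p. In F1 they ran from -0.52 to 0.13 for miR-183, from -0.97 to 0.00205 for miR-183-3p and from -0.34 to 0.46 for miR-183-5p. In F2 they ran from -1.53 to 0.10 for miR-182-3p and from -0.72 to 0.0165 for miR-183-5p. For F2 Con against F0 Con miR-183 ran from -0.0963 to 0.54, and miR-96 from -1.57 to -1.34, with an edgeR adjusted p of 0.0462 without F1 Con replicate 2. The share of all precursors called in F2 Con against F0 Con without that library is not given here. The 5p share of miR-183 ran from -4.93 to 4.51 points, of miR-182 from 1.89 to 16.8 and of miR-96 from 2.68 to 16.8. Pearson r ran from 0.36 to 0.80 for miR-183 with miR-182, from 0.18 to 0.58 for miR-183 with miR-96 and from 0.59 to 0.79 for miR-96 with miR-182.

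The cause of these changes was not tested. The lone F1 NHS library limits F1, and 3 against 3 libraries limit exact tests to p of 0.1 or more.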
